A study of Mus musculus with 6 samples.

Results

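The tripartite motif (TRIM) family was followed in mouse HoxB8 neutrophil progenitors, progenitor cells kept immature by the transcription factor Hoxb8. Members were the probe sets whose annotated gene symbol is Trim followed by a number and at most 1 letter. The rule found 60 probe sets, each for a different gene, among the 22206 on the array. Total RNA was hybridised to Affymetrix Mouse Clariom S arrays after 1 day in differentiation medium with stem cell factor supernatant, which both groups received. The K313 group (3 arrays) expressed the K313 form of C/EBPα, a form associated with acute myeloid leukaemia, and the WT group (3 arrays) expressed wild-type C/EBPα, the transcription factor that drives granulocyte formation. The labels give neither the construct that carries each form, nor the number of clones, nor whether the replicates are separate cultures, so each p-value reflects only how much these 6 samples vary, and that variation may be technical.

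Most TRIM proteins carry a RING finger, which passes ubiquitin from a conjugating enzyme to a target protein, followed by B-boxes and a coiled coil. The domain at the end of the protein selects the target and sorts the family into classes. Members without a RING finger are grouped apart here, whatever the domain at their end. The PRY-SPRY class is best known for restraining viruses and tuning innate immune signals in myeloid cells, and many of its genes respond to interferon. Other classes act at the endoplasmic reticulum membrane, on chromatin or on microtubules.

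Of the 60 members, 7 differed between the groups, 4 higher and 3 lower in K313. Trim30a, Trim30d and Trim30b, neighbouring genes of the PRY-SPRY class on chromosome 7, rose, as did Trim16, a member without a RING finger. Trim13 and Trim59, the members anchored in a membrane, fell, and so did Trim8, a ligase known from human cells to promote NF-kB signalling. The steepest change was that of Trim13, which was 3.26-fold lower in K313. The share of members past the threshold, 11.7%, stands beside 7.75% of all probe sets on the array. In the directions taken apart it was 6.67% higher, against 3.77% of all probe sets, and 5.0% lower, against 3.97%. The test was limma on all probe sets, two-sided, with a Benjamini-Hochberg adjusted p under 0.05 as the threshold. The groups did not overlap in 14 members (23.3%), against 21.9% of all probe sets. Differences of the members were centred near 0: the median over the 60 was 0.00 on the log2 scale, with 30 above and 30 below 0, and the median over all probe sets was 0.02.

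Values are log2 expression levels from the authors' RMA, in which 1 unit is a doubling. Probe sets differ in affinity, so levels are compared between groups and not between genes. The array gives no detection calls here. Olfactory receptor genes, 1091 probe sets for receptors of the nasal epithelium, served as a gauge of low signal: their 95th percentile was 4.65 to 4.95 on the 6 arrays, with a mean of 4.75. By their mean over all arrays 33 TRIM members lay above 4.75 and 27 at or below it. Of the 33, 6 were called (18.2%), against 13% of all probe sets above that level, and of the 27, 1 was called (3.7%), against 1.73% of all probe sets at or below it. In bulk RNA, fewer cells that express a gene and less of its RNA per cell cannot be told apart.

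Arrays correlated at 0.995 to 0.996 within K313, at 0.994 to 0.995 within WT and at 0.983 to 0.989 between groups (Pearson's r over probe sets). WT replicate 3 was nearest to K313, at 0.987 to 0.989. Cebpa read 13.85, 13.90 and 14.45 in K313 and 14.53, 14.85 and 14.35 in WT (limma adjusted p = 0.212), and the sources do not say if this probe set reads the expressed forms. Hoxb8 averaged 8.34 in K313 and 12.98 in WT, and the Y-linked gene Eif2s3y 12.23 in K313 and 4.36 in WT. WT replicate 3 read 7.03 for Eif2s3y, against 3.11 and 2.93 in the other WT arrays. These differences and the C/EBPα form cannot be told apart in this design. All 10 neutrophil progenitor markers lay above the olfactory level, with array means of 13.95 to 14.13 in K313 and 13.55 to 13.68 in WT; 4 rose and 2 fell. Markers of other cells lay above that level in part. Above it were 4 of 4 eosinophil, 6 of 7 basophil and mast cell, and 4 of 5 erythroid and megakaryocyte markers. So were 5 of 7 monocyte and macrophage, 2 of 4 B cell, 2 of 6 T and NK cell and 2 of 5 dendritic cell markers. The 2 T and NK cell markers above it were Nkg7, at 12.64 in K313 and 13.07 in WT, and Cd4, at 5.28 in K313 and 5.44 in WT. Eosinophil markers (4 of 4 measured) had array means of 10.06 to 10.62 in K313 and 11.44 to 12.02 in WT, basophil and mast cell markers (7 of 7) 10.86 to 11.27 in K313 and 11.36 to 11.63 in WT, and erythroid and megakaryocyte markers (5 of 7) 5.49 to 5.77 in K313 and 6.37 to 6.61 in WT. B cell markers (4 of 5) had 4.12 to 4.46 in K313 and 5.42 to 5.67 in WT, T and NK cell markers (6 of 6) 5.17 to 5.37 in K313 and 5.48 to 5.67 in WT, monocyte and macrophage markers (7 of 8) 6.84 to 7.22 in K313 and 6.97 to 7.08 in WT, and dendritic cell markers (5 of 5) 4.08 to 4.17 in K313 and 4.14 to 4.31 in WT. By limma, 3 eosinophil markers fell and 0 rose, 3 basophil and mast cell markers fell and 1 rose, 2 erythroid and megakaryocyte markers, 2 B cell markers and 1 T and NK cell marker fell, 2 monocyte and macrophage markers rose and 2 fell, and no dendritic cell marker passed (0 higher and 0 lower at an unadjusted p under 0.05). Within a list, markers moved in opposite directions: Ly6c2 averaged 12.36 in K313 and 10.59 in WT while Cx3cr1 averaged 4.04 in K313 and 6.08 in WT, and Prss34 averaged 12.37 in K313 and 8.39 in WT while Cd200r3 averaged 7.82 in K313 and 11.86 in WT. The part of these cell types in the TRIM differences was not tested.

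The 250 bases before the start sites of the Trim30 genes and of the adjoining Trim12c are shown, since 3 adjoining Trim30 genes rose. Trim12c did not pass the test. Sequences are from RefSeq (GRCm38.p6), read 5′ to 3′ on the strand of the gene, with matches to the interferon-stimulated response element core (GAAA, any 2 bases, GAAA) or the C/EBP site core (TTGCNNAA) in capitals. Both strands were searched, and in these windows the 2 motifs do not overlap. The Trim30a window is chr7:104465194-104465443, Trim30d chr7:104507850-104508099, Trim30b chr7:104358647-104358896 and Trim12c chr7:104353350-104353599, all on the minus strand.
Trim30a: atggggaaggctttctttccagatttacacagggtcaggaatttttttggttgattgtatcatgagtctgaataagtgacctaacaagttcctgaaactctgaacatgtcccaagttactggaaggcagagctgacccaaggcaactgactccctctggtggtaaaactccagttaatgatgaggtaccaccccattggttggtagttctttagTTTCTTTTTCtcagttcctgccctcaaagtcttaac
Trim30d: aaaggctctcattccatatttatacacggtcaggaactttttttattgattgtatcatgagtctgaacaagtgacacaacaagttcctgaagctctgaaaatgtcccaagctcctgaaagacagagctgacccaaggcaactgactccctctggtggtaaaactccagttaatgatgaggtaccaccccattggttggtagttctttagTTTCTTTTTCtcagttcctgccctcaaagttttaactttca
Trim30b: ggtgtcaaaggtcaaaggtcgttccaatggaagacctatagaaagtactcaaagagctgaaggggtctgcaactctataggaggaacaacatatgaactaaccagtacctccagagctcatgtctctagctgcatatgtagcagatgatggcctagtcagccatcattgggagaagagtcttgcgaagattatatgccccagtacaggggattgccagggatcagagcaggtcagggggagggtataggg
Trim12c: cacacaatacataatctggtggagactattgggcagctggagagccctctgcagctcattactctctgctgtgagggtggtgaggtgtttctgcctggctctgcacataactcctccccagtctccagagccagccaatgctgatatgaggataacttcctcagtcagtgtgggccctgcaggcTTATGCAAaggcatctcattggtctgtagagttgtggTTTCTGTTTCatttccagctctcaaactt
The windows of Trim30a and Trim30d were alike at 92.2% of 245 aligned bases, and each holds the response element core on the opposite strand, GAAAAAGAAA, beginning 36 bases before the start in Trim30a and 41 in Trim30d. A second annotated start of Trim30a has no match to either motif. The Trim30b window was alike at 56.9% of 202 bases to that of Trim30a. It was alike at 51.4% of 220 to the second Trim30a start and at 50.9% of 228 to Trim30d. How alike unrelated windows are was not measured. The Trim30b window holds neither motif, and Trim12c holds both, the response element core as GAAACAGAAA and the C/EBP core as TTGCATAA. In RefSeq as a whole, 2.98% of promoter windows hold the response element core and 9.56% the C/EBP core. Among the windows of the 46 TRIM members with a RefSeq window, 4 of 60 hold the first (6.67%) and 8 of 60 the second (13.3%). Of the other called members, Trim13 and Trim59 have 3 windows, and none of these holds either motif. Trim8 and Trim16 have no RefSeq window. A match is a run of letters and not evidence of binding.

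Trim30a encodes a mouse ligase induced by Toll-like receptors that promotes the breakdown of Tab2 and Tab3 and so restrains NF-kB. It read 10.57, 9.91 and 10.36 in K313, against 8.97, 8.65 and 9.62 in WT. All K313 arrays lay above all WT arrays, and WT replicate 3 was the nearest. The difference was 1.20 ± 0.25 (SE, log2, n = 3 per group; limma adjusted p = 0.0129), or 2.30-fold, with a 95% interval of 1.56 to 3.39-fold before adjustment. Its adjusted p was 0.0604 without K313 replicate 1 and 0.0597 without K313 replicate 3.

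Trim30d, its close relative, read 6.59, 5.54 and 5.37 in K313, against 5.04, 4.52 and 4.62 in WT. K313 replicate 1 stood well above the other arrays and WT replicate 1 was highest of the WT arrays, with no overlap between groups. WT replicates 2 and 3 lay under the olfactory level. The difference was 1.11 ± 0.29 (limma adjusted p = 0.0403) and 0.73 without K313 replicate 1 (adjusted p = 0.0769). Trim30b read 5.24, 5.29 and 4.94 in K313, against 4.70, 3.97 and 4.32 in WT, a difference of 0.83 ± 0.20 (limma adjusted p = 0.0296). The groups did not overlap, and the 3 WT values lay under the olfactory level. Trim30b and Trim30d both passed without K313 replicate 3 and without WT replicate 1. The calls of both were lost without K313 replicate 1, K313 replicate 2, WT replicate 2 or WT replicate 3, with adjusted p between 0.0582 and 0.124, and also with quantile normalization and with a common array median. Whether the probe sets of the 3 Trim30 genes also read each other's RNA was not tested.

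**Figure D1:**
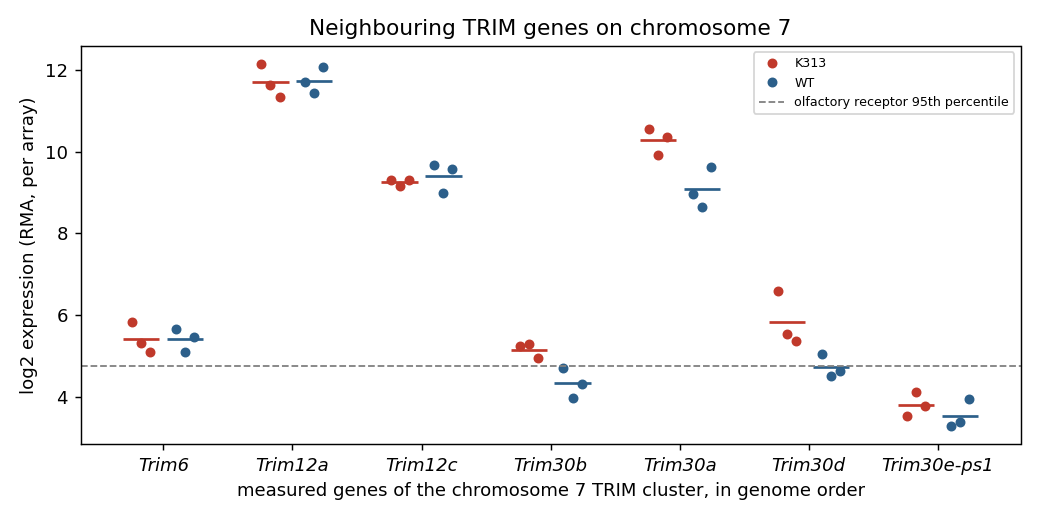
Log2 expression (RMA) on each array for the measured genes of the chromosome 7 TRIM cluster, in genome order, with K313 (red) left of WT (blue). Points are arrays, short lines are group means, and the dashed line is the mean 95th percentile of olfactory receptor probe sets, 4.75. The groups separate in Trim30b, Trim30a and Trim30d and overlap in the other 4 genes.

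The measured genes beside them did not pass the test. Trim12c, a mouse relative of the retroviral restriction factor Trim5, averaged 9.26 in K313 and 9.42 in WT, with overlapping groups and a difference of -0.16 ± 0.19 (limma adjusted p = 0.774; 95% interval -0.59 to 0.27). Trim12a read 12.15, 11.64 and 11.34 in K313 and 11.71, 11.45 and 12.07 in WT, a difference of -0.03 ± 0.23. Trim6 averaged 5.41 in K313 and 5.40 in WT. On the other side, the pseudogene Trim30e-ps1, which is no member, stayed under the olfactory level at 3.81 in K313 and 3.54 in WT (limma adjusted p = 0.618). Whether Trim30a changed more than Trim12c was not tested as such.

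Trim13 is a ligase held in the endoplasmic reticulum membrane, where it takes part in the disposal of misfolded proteins and in autophagy. It read 5.69, 6.09 and 5.74 in K313, against 7.40, 7.44 and 7.79 in WT. The arrays of each group lay close together, and the groups were far apart, with all values above the olfactory level. The difference was -1.70 ± 0.18 (SE, n = 3 per group; limma adjusted p = 9.06e-05), with a 95% interval of -2.10 to -1.31. It passed the threshold under all 14 alternative settings, with differences of -1.83 to -1.58 and adjusted p between 5.38e-05 and 0.0403. Its measured neighbours on chromosome 14 did not pass the test: Kcnrg, which overlaps it, averaged 4.25 in K313 and 4.35 in WT, and Spryd7 averaged 9.95 in K313 and 10.14 in WT.

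Trim59, the other membrane-anchored member, is known from human cells as an inhibitor of NF-kB and interferon signals. It read 10.60, 10.67 and 10.00 in K313, against 11.40, 11.06 and 11.19 in WT. K313 replicate 3 was the lowest array, and the groups did not overlap. The difference was -0.79 ± 0.20 (limma adjusted p = 0.0353), and -0.58 without K313 replicate 3 (adjusted p = 0.119). The adjusted p was 0.0549 without K313 replicate 1, 0.119 without WT replicate 1 and 0.0887 without WT replicate 3. Its neighbours on chromosome 3 were Smc4, a condensin subunit, at 15.78 in K313 and 15.60 in WT, and the importin Kpna4 at 11.23 in K313 and 11.22 in WT, neither past the threshold.

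Trim8, which in human cells ubiquitinates the kinase TAK1 and so promotes NF-kB signalling, read 9.98, 9.77 and 9.89 in K313, against 10.34, 10.54 and 10.73 in WT. The arrays of each group were within a narrow range and did not overlap. The difference was small, -0.66 ± 0.16 (limma adjusted p = 0.0310), or 1.58-fold lower in K313. With single arrays removed, the call held without WT replicate 1. Otherwise the adjusted p was 0.0597 without K313 replicate 1, 0.132 without K313 replicate 2, 0.0892 without K313 replicate 3, 0.0733 without WT replicate 2 and 0.119 without WT replicate 3. Its adjacent genes on chromosome 19 did not pass, with Sufu at 9.97 in K313 and 10.17 in WT and Arl3 at 10.58 in K313 and 10.67 in WT. The remaining members of its class, which have no further domain, did not pass: Trim56, which acts on DNA and RNA sensing, differed by -0.20 ± 0.19, Trim31 by -0.07 ± 0.17, Trim52 by 0.04 ± 0.20 and Trim40 by 0.02 ± 0.16.

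Trim16 binds galectin 3 and guides autophagy to damaged lysosomes in human cells. It read 11.03, 10.86 and 10.69 in K313, against 9.23, 9.68 and 10.42 in WT. The WT arrays were spread widely, with WT replicate 3 close to the K313 values, and the groups did not overlap. The difference was 1.08 ± 0.26 (limma adjusted p = 0.0270), or 2.12-fold, and 1.41 without WT replicate 3 (adjusted p = 0.00212). The call was lost without any 1 of the other 5 arrays, with adjusted p between 0.0616 and 0.0989. Of its measured neighbours on chromosome 11, Zfp287, 2 genes away, also rose, at 5.95, 6.57 and 5.84 in K313 against 5.22, 5.22 and 5.34 in WT (0.86 ± 0.20, limma adjusted p = 0.0224). The adjacent Fbxw10 averaged 5.10 in K313 and 4.59 in WT with no overlap and no call (adjusted p = 0.168), and Zfp286, on the other side, averaged 4.02 in K313 and 4.06 in WT. The other members without a RING finger did not pass: Trim44 read 10.69, 10.30 and 10.46 in K313 and 10.51, 10.66 and 10.56 in WT, Trim14, an adaptor of antiviral signalling, averaged 9.66 in K313 and 9.86 in WT, and Trim29 lay under the olfactory level at 3.21 in K313 and 3.40 in WT.

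**Figure D2:**
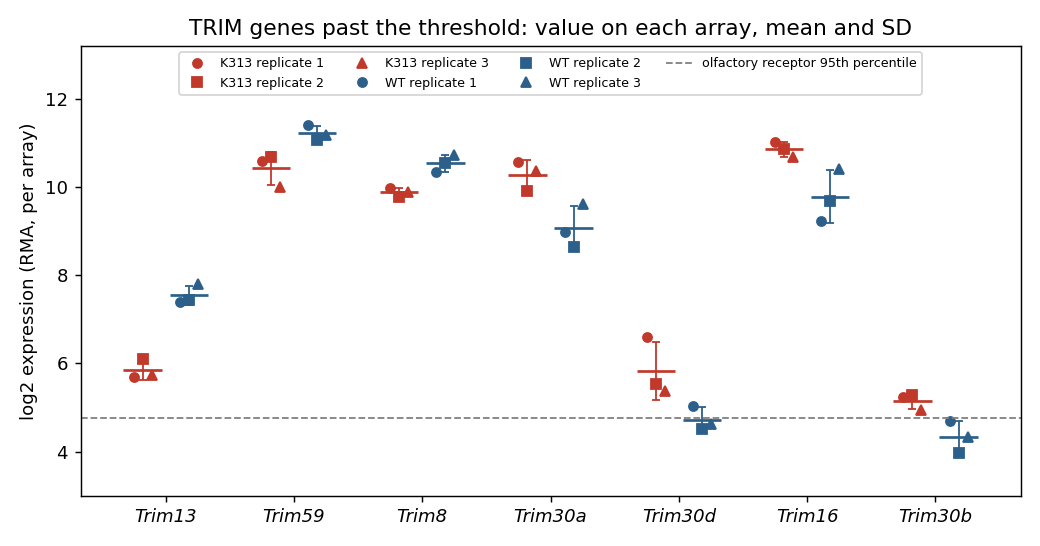
Log2 expression (RMA) on each array for the 7 TRIM genes past the threshold, K313 (red) left of WT (blue), with symbols for replicates, lines for group means and bars for the SD (n = 3). The dashed line is the mean 95th percentile of olfactory receptors, 4.75. Trim13 shows the widest gap, and WT replicate 3 lies nearest to K313 in Trim30a and Trim16.

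**Figure D3:**
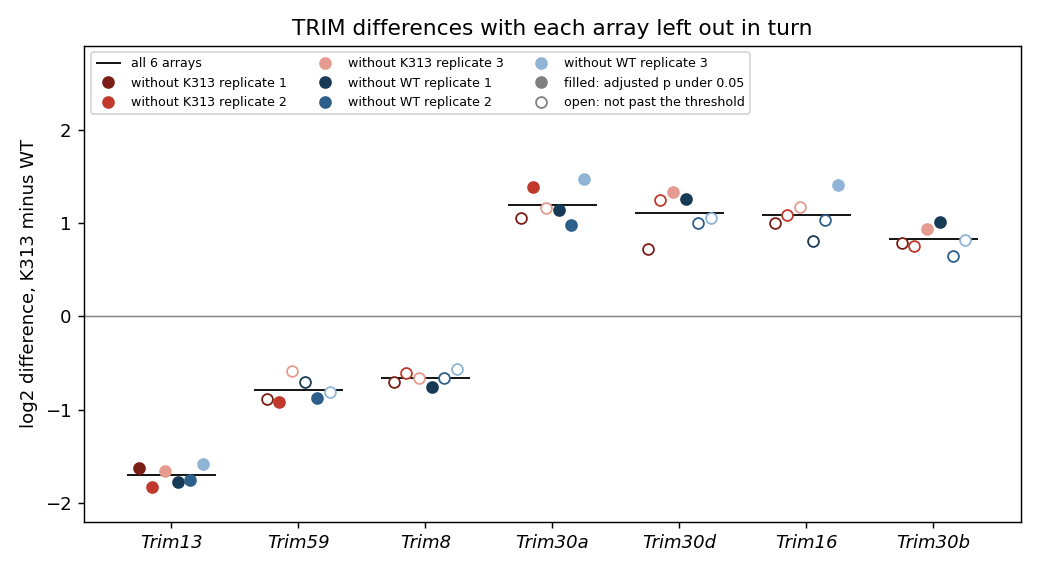
Log2 difference, K313 minus WT, of the same 7 genes with each array left out in turn; the black line is the value with all 6 arrays, and filled points have a limma adjusted p under 0.05. No difference changes sign, Trim13 is filled at all 6 points, and the other 6 genes have 1 to 4 filled points.

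The PHD and bromodomain class holds nuclear co-regulators that read and modify chromatin. Trim24, which promotes the breakdown of p53, read 11.49, 10.96 and 10.74 in K313, against 11.52, 11.58 and 11.96 in WT. K313 replicate 1 lay just under the lowest WT array and the other K313 arrays further below. The difference, -0.62 ± 0.21, did not pass (limma adjusted p = 0.129), and passed at -0.84 without K313 replicate 1 (adjusted p = 0.0382). Trim28, the KAP1 protein that silences retroelements through KRAB zinc finger proteins, averaged 10.80 in K313 and 10.62 in WT, a difference of 0.18 ± 0.24. Trim33, a partner of SMAD factors in blood cell formation, averaged 11.03 in K313 and 11.11 in WT (-0.08 ± 0.20), and Trim66 lay under the olfactory level at 3.76 in K313 and 3.93 in WT.

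Members without a RING finger were grouped apart whatever the domain at their end, so Trim16 and Trim14 are not counted in the PRY-SPRY class here. As grouped, this class has 30 members, and besides the Trim30 genes none of the other 27 passed. Their differences lay between -0.19 (Trim50) and 0.43 (Trim62), and 15 of the 27 were above the olfactory level. Trim27 read 12.50, 12.93 and 12.35 in K313 and 12.79, 12.76 and 12.54 in WT, overlapping fully (-0.10 ± 0.18). Trim25, the ligase that activates the RNA sensor RIG-I, averaged 11.55 in K313 and 11.47 in WT, with an interval of -0.26 to 0.43 that leaves out a change of the size of Trim30a's. Trim21, the cytosolic antibody receptor, averaged 6.85 in K313 and 6.60 in WT, and Trim68, also on chromosome 7, 6.14 in K313 and 6.17 in WT. Trim65, which acts on the RNA sensor MDA5, averaged 7.77 in both groups. Trim11, Trim35, Trim39 and Trim41 averaged 8.25, 9.03, 8.91 and 9.88 in K313, against 8.06, 9.22, 8.91 and 9.98 in WT. Trim62 read 4.67, 4.18 and 3.80 in K313 and 3.66, 3.77 and 3.94 in WT, all under the olfactory level. Trim10 and Trim58, genes of erythroid cells, lay under that level in both groups, at 3.78 and 3.34 in K313 and 3.68 and 3.29 in WT. Trim43a and Trim43b, near copies, gave almost the same reading on each array, 0.02 to 0.16 apart.

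The microtubule-binding classes with a COS box had no call among the 8 members that the symbol rule found. All 8 lay under the olfactory level by their mean, where 1.73% of all probe sets were called, so a count of 0 says little about these classes. Genes of these classes with other names are read further below. Among them Mid1 averaged 10.50 in K313 and 9.65 in WT and was called higher (limma adjusted p = 0.0304). At an unadjusted limma p under 0.05, 2 of the 8 were higher and 1 lower. Of the 10319 probe sets at or below the olfactory level, 493 were higher and 303 lower by that measure. Trim36 came nearest, at 3.57, 3.56 and 3.57 in K313 against 4.07, 3.97 and 4.33 in WT (-0.56 ± 0.16, limma adjusted p = 0.0581). It passed with quantile normalization (0.0484), with a common median (0.0359) and with array weights (0.0383). Trim9, a neuronal ligase, read 3.96, 3.63 and 3.30 in K313 and 3.33, 2.89 and 3.10 in WT (adjusted p = 0.181), and Trim46, an organiser of axonal microtubules, 4.06, 4.14 and 3.58 in K313 and 4.59, 4.11 and 4.30 in WT. Trim63, the muscle ligase MuRF1, read 4.25, 4.66 and 4.74 in K313 and 3.82, 4.48 and 3.90 in WT. Trim42 read 3.09, 3.26 and 3.52 in K313 and 3.13, 3.51 and 3.14 in WT. The muscle genes Trim54 and Trim55 averaged 3.07 and 4.39 in K313 and 3.08 and 4.09 in WT, and Trim67 3.03 in K313 and 3.17 in WT.

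In the NHL class, whose repeats bind RNA or protein, Trim32 read 4.87, 4.99 and 5.15 in K313 and 5.37, 5.09 and 5.70 in WT (-0.38 ± 0.19, limma adjusted p = 0.321), and Trim2, Trim3 and Trim71 averaged 3.31, 4.91 and 4.17 in K313 and 3.43, 5.04 and 3.97 in WT. Trim37, the MATH class member that restrains centrosome assembly, read 11.01, 11.41 and 11.11 in K313 and 10.46, 10.99 and 10.96 in WT. The groups did not overlap, but the difference of 0.37 ± 0.19 did not pass (adjusted p = 0.357). Trim45, with a filamin domain, read 6.01, 6.03 and 5.87 in K313 and 5.73, 5.63 and 5.35 in WT, again with no overlap and no call (0.40 ± 0.16, adjusted p = 0.215). Trim80, not assigned to a class here, read 4.52, 4.69 and 4.68 in K313 and 4.45, 4.17 and 4.51 in WT.

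**Figure D4:**
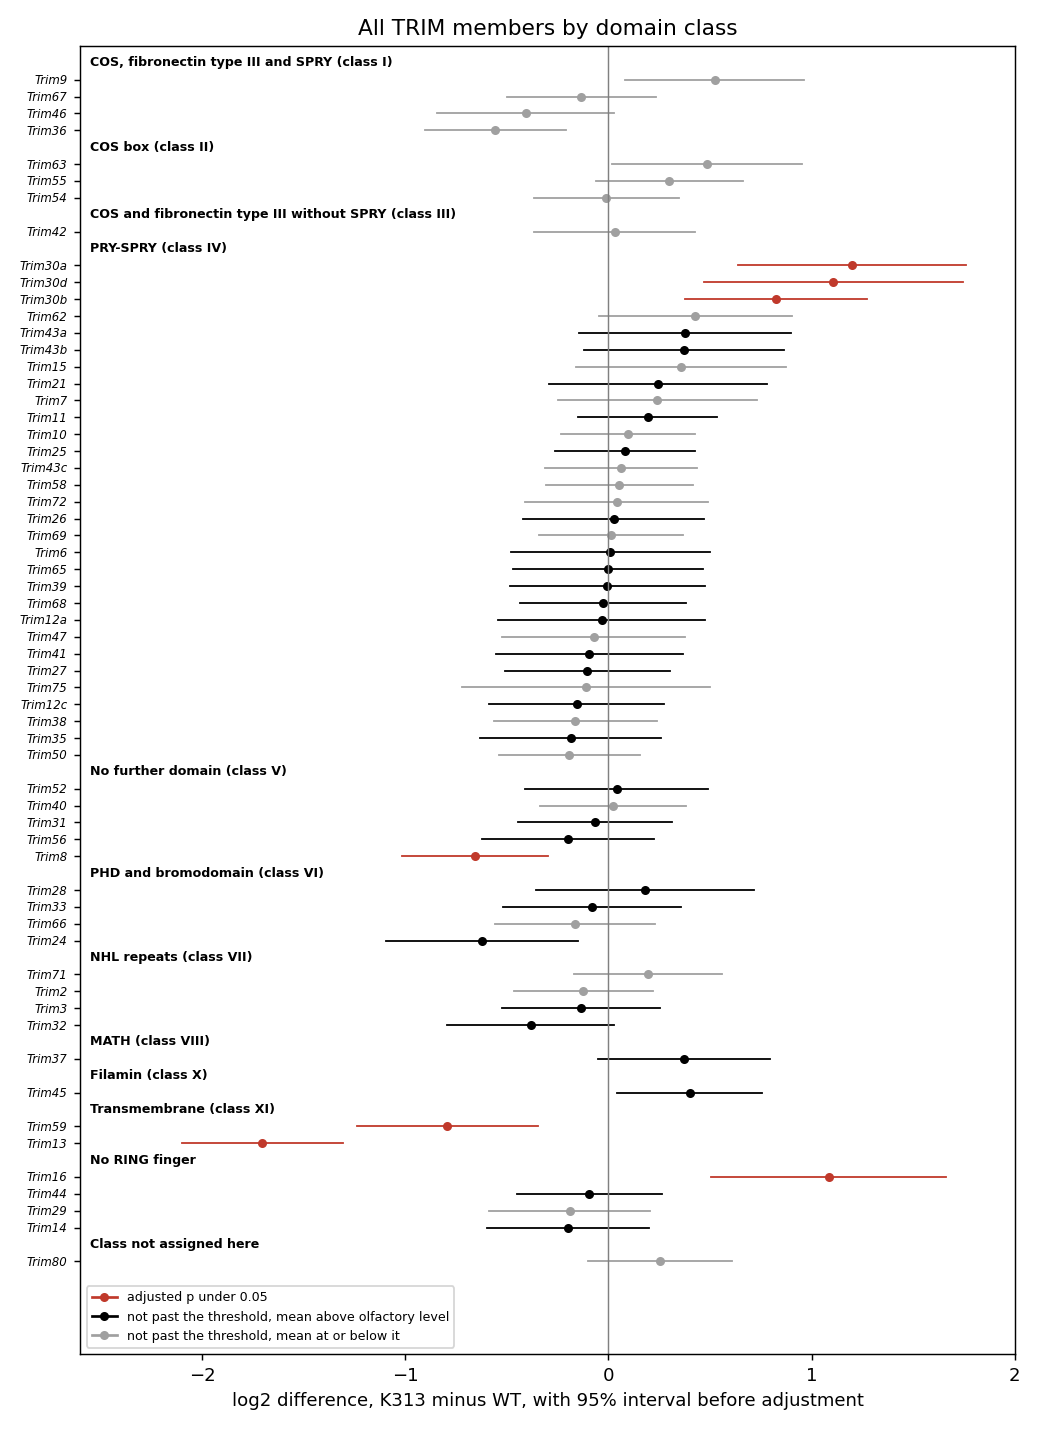
Log2 difference, K313 minus WT, with its 95% interval before adjustment, for the 60 TRIM members by domain class. Red marks the 7 past the threshold, black other members with a mean above the olfactory level and grey those at or below it. Calls fall in the PRY-SPRY class (3 of 30), the class without a further domain (1 of 5), the transmembrane class (2 of 2) and the members without a RING finger (1 of 4). The last group was kept apart whatever the domain at the end of the protein.

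Genes that work with the family were read from 7 lists, against 3.77% of all probe sets higher and 3.97% lower. Among the 11887 probe sets with a mean above the olfactory level these shares were 6.04% and 6.92%. Of all 22206, 1953 were higher and 2007 lower at an unadjusted limma p under 0.05. Above the level these counts were 1460 and 1704. Above it lay 3 of 13 TRIM-like genes, 13 of 16 conjugating enzymes, 13 of 15 KAP1 genes and 10 of 11 SMAD genes. Of the sensing, interferon and p53 lists, 17 of 19, 17 of 24 and 5 of 8 did. Of 13 TRIM and TRIM-like genes with other names, 2 rose and 0 fell with limma (3 and 0 at an unadjusted p under 0.05; median difference 0.14). Mid1, a COS class ligase on microtubules, read 10.75, 10.32 and 10.43 in K313 against 9.21, 9.82 and 9.91 in WT (0.85 ± 0.21, adjusted p = 0.0304). Fsd1l rose and stayed under the olfactory level, at 4.49 in K313 against 3.52 in WT. Pml, the ligase that builds nuclear bodies, averaged 11.41 in K313 and 11.69 in WT and did not pass.

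Of 16 ubiquitin-conjugating enzymes, 0 rose and 1 fell with limma (0 and 3 at an unadjusted p under 0.05; median -0.25): Ube2e3 averaged 11.16 in K313 and 11.84 in WT (-0.68 ± 0.16, adjusted p = 0.0253). Of 15 genes of the KAP1 silencing machinery, 1 rose and 1 fell (median -0.16). The maintenance DNA methyltransferase Dnmt1 averaged 13.14 in K313 and 13.75 in WT (-0.61 ± 0.16, adjusted p = 0.0439), and Chd3, the riser, lay under the olfactory level in both groups. Of 11 genes of the TGF-beta and SMAD pathway on which Trim33 acts, 0 rose and 3 fell with limma (0 and 6 at an unadjusted p under 0.05; median -0.61). Smad3, a transducer of the signal, read 9.09, 9.02 and 9.05 in K313 against 10.07, 10.29 and 10.18 in WT (-1.13 ± 0.15, adjusted p = 0.000533), the receptor Tgfbr1 averaged 11.02 in K313 and 11.98 in WT, and the ligand Tgfb1 15.11 in K313 and 15.94 in WT.

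Of 19 genes of RNA and DNA sensing, 3 rose and 1 fell (median 0.06). Ifih1, which encodes the RNA sensor MDA5, read 8.50, 7.61 and 9.03 in K313 against 5.33, 4.89 and 5.75 in WT (3.06 ± 0.33, limma adjusted p = 0.000102). Sting1, the adaptor of DNA sensing, averaged 14.06 in K313 and 12.77 in WT (1.29 ± 0.18, adjusted p = 0.000898), and the kinase Ikbke 8.17 in K313 and 7.50 in WT (adjusted p = 0.04998). Tab2, the adaptor that the Trim30a protein is known to break down, was the 1 gene of the list that fell, at 11.75, 11.65 and 11.59 in K313 against 12.29, 12.73 and 12.19 in WT (-0.74 ± 0.18, adjusted p = 0.0259). Tab3 averaged 10.81 in K313 and 11.34 in WT and did not pass (-0.53 ± 0.24, adjusted p = 0.282). Arrays measure RNA, so they do not show protein breakdown.

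Of 24 genes of interferon signalling and response, 2 rose and 1 fell (median 0.09). The interferon gamma receptor Ifngr1 averaged 14.08 in K313 and 13.23 in WT (0.85 ± 0.19, limma adjusted p = 0.0182) and Ifit2 5.35 in K313 and 4.34 in WT (1.01 ± 0.23, adjusted p = 0.0198). Usp18, which removes the ubiquitin-like protein ISG15, averaged 4.55 in K313 and 5.29 in WT (-0.74 ± 0.15, limma adjusted p = 0.00790). All K313 values of Usp18 and all WT values of Ifit2 lay under the olfactory level. Of 8 measured genes of the p53 pathway, 0 rose and 1 fell with limma (0 and 2 at an unadjusted p under 0.05; median -0.14): the cell cycle inhibitor Cdkn1a averaged 12.15 in K313 and 13.45 in WT (-1.30 ± 0.21, adjusted p = 0.00194).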

How the data were processed

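RNA of 3 K313 and 3 WT samples was measured on Affymetrix Mouse Clariom S arrays. Each probe set has 1 log2 value per array, deposited by the authors and made with RMA and the Transcriptome Analysis Console, per the submitters' processing notes; versions and the build of the array design are not given in the sources used here. Array medians were 5.055, 5.125 and 5.13 in K313 and 5.01, 5.06 and 5.01 in WT. Precision is limited by having 3 arrays in each group. The platform annotation gave 19572 probe sets 1 symbol and 2634 none.

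Groups were compared with limma 3.58.1 (R 4.3.3), lmFit and eBayes, on all 22206 probe sets, two-sided, calling an adjusted p (Benjamini-Hochberg) under 0.05; differences are K313 minus WT, errors are standard errors, and the code was tested on simulated data. The members and lists were chosen with earlier results of these data known. Per-array values are given for members past the threshold, the 8 next by p and the highest member of each class, and up to 4 genes per list are named by p; Trim12a, Trim12c, Tab3, Pml, the cell type markers with values and the neighbouring genes were named after their values were seen. Gene order came from RefSeq (GRCm38.p6). Motifs and the olfactory gauge were also chosen after the values were seen. Alternatives were quantile normalization, a common array median, a low-signal filter, other variance models, array weights, 1-symbol probe sets, a replicate block and leaving out each array.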

Additional observations from a re-analysis of the deposited data

How the results depend on the processing

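With all 6 arrays 4 members rose, 3 fell and 1720 probe sets passed. Quantile normalization and a common array median each gave 2 rises and 4 falls, both losing Trim30b and Trim30d and adding Trim36 to the falls. The common median lowered every difference by the same amount, as K313 medians were higher on average. It took Trim30b from 0.827 to 0.75, Trim30d from 1.107 to 1.03 and Trim36 from -0.557 to -0.633. Why calls moved with quantile normalization was not tested. Ordinary variance per probe set in place of limma's shrinkage gave 0 rises, 1 fall and 496 probe sets (4 rises and 4 falls at an unadjusted p under 0.05); Trim13 was the member that passed. When arrays were left out 1 at a time, rises ranged from 0 to 3, falls from 1 to 2 and probe sets from 1228 to 1465. The count of 0 came without K313 replicate 1, where 5 members were higher at an unadjusted limma p under 0.05. With 2 arrays in a group the fit has fewer degrees of freedom. A low-signal filter, an intensity trend with robust prior, and 1-symbol probe sets kept the same 7 members, and array weights added Trim36. Same-numbered arrays of the groups did not deviate together (correlations of -0.061, 0.029 and -0.062), so the numbers were not taken as pairs; with a replicate block 4 members rose, 2 fell and 1546 probe sets passed, and Trim8 was lost (adjusted p = 0.0633). No called member changed sign under any of the 14 settings. Signals near the olfactory level limit 27 members.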
